A study of Homo sapiens with 17 samples.

Results

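The genes described here are those that the deposited expression table annotates with the KEGG pathway "DNA replication". They number 35 of the 16884 genes in the table, and membership followed that annotation alone, so no expression value decides which genes of the pathway are in. All 35 passed the filter on low counts and were tested. They were measured in BEAS-2B, an established line of human bronchial epithelial cells immortalised with SV40 T antigen sequences. The labels give the genotype as WT, and all cells were grown in the bronchial medium BEGM. The medium held 0 mM acetaldehyde for 6 control libraries, 10 mM for 6 libraries and 16 mM for 5 libraries, each for 24 h. Acetaldehyde is a reactive aldehyde of tobacco smoke and ethanol metabolism that forms adducts with DNA. The labels do not say whether the libraries came from separate cultures, so p-values measure only the spread between libraries, which may be technical.

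A cell copies its genome once per division. The MCM2-7 ring is loaded on DNA before S phase and unwinds it at the fork, and replication protein A (RPA) coats the exposed single strands. DNA polymerase alpha-primase lays the RNA-DNA primers, the RFC complex loads the PCNA clamp on them, and polymerase epsilon and polymerase delta extend the leading and the lagging strand. On the lagging strand RNase H enzymes, FEN1 and DNA2 remove the primers and LIG1 seals the pieces, which are called Okazaki fragments. Many of these genes are transcribed as cells enter S phase under the E2F factors, which RB holds back in resting cells. T antigen binds RB.

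Values below called levels are the authors' FPKM divided by a TMM factor for each library, which scales for library composition. Changes are log2 estimates ± SE from edgeR's quasi-likelihood test on the deposited estimated counts. A gene is called changed at a Benjamini-Hochberg adjusted p under 0.05 over all genes tested. Total counts lay between 15952673 and 18809242 per library. One 10 mM library, library 1, lay away from the rest: its correlation with the other 10 mM libraries over all tested genes was 0.840 to 0.866, and its TMM factor was 0.559 against 0.967 to 1.107 in the other 16 libraries. Counts of called genes of the pathway are therefore given with and without library 1 in each comparison. Many changes of single genes, and most counts for other gene lists, are given from 1 fit only. That is the fit on all libraries unless the text says otherwise. A call given from 1 fit need not hold in the other. Within the groups, libraries also lay in sets that correlated at 0.99 or more, namely control 1 to 3 and 4 to 6, 10 mM 2 to 4 and 5 to 6, and 16 mM 1 to 3 and 4 to 5. The labels do not say what such a set is. The split ran alike in the 3 groups by TMM factor. Those factors were 1.048 to 1.107 in the lower-numbered sets and 0.967 to 1.011 in the higher-numbered sets. No fit took the sets as a factor, and what they share across groups was not tested. Of 6 epithelial markers, KRT7, KRT8 and KRT18 were above 1 FPKM in every group, while EPCAM, CDH1 and KRT19 did not pass 0.119 in any library. The summed level of the list was 757 to 1633 in controls, 966 to 9811 at 10 mM, where library 1 was highest, and 974 to 1142 at 16 mM. Fibroblast markers summed to 28.4 to 52.0 in controls, 30.6 to 46.7 at 10 mM and 21.5 to 24.2 at 16 mM, and 4 of the 6 tested fell at 16 mM against control. Of all genes, 18.1% were called lower in that comparison with all libraries and 32.2% without 10 mM library 1. Of 4 immune markers only CD68 was above 1 FPKM, and their sum was 2.68 to 4.24 in controls, 7.45 to 23.5 at 10 mM and 9.40 to 13.4 at 16 mM. Basal and endothelial markers were near 0 in every library. The part of these differences in the results below was not tested.

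The 35 genes together held 0.527 to 0.581% of the counts of a control library, 0.452 to 0.508% in libraries 2 to 6 at 10 mM, and 0.416 to 0.509% at 16 mM. The share in 10 mM library 1 was 0.658%. The 16 mM libraries all lay below the controls, and 10 mM library 1 lay above every other library. In bulk RNA, fewer cells that use a gene and less of its RNA per cell cannot be told apart.

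**Figure D1:**
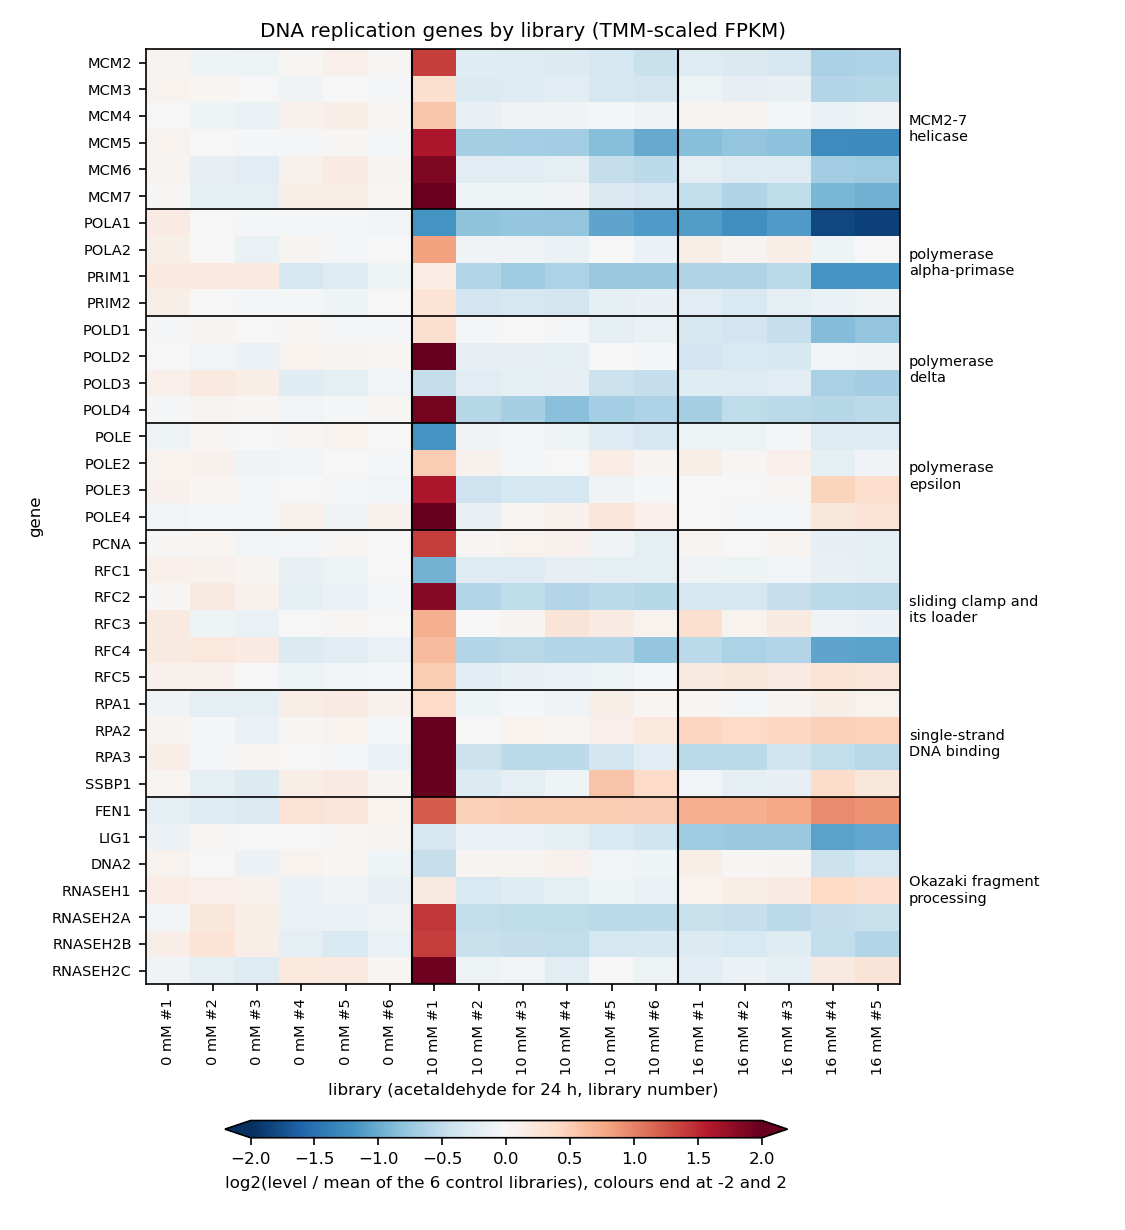
Level of each of the 35 DNA replication genes (rows, grouped by function) in each of the 17 libraries (columns, by acetaldehyde concentration). The colour is the log2 ratio to the mean of the 6 control libraries. POLA1 is lower and FEN1 is higher in all treated libraries, and 10 mM library 1 differs from the rest of its group in most rows.

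At 16 mM against control, POLA1, PRIM1, POLD1, POLD3, RFC4 and LIG1 fell and FEN1 rose. These 7 of 35 genes (20%) stand beside 35.3% of all genes called in that comparison, with 17.3% higher and 18.1% lower. Without 10 mM library 1, which is in neither group here but bears on the shared estimate of spread, the filter and the scaling, 22 of the 35 were called (62.9%), against 65.9% of all genes. Of these 22, 4 were higher and 18 lower, where all genes were called higher in 33.7% and lower in 32.2%. The median log2 change of the 35 genes was -0.20 in both fits, and that of all genes was 0.00 with and 0.01 without that library. The share called was thus below the background with all libraries and near it without that library, and most of the calls among the 35 were in the lower direction.

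The levels of 13 genes were lower in all 5 libraries at 16 mM than in all 6 controls, which is 37.1% of the 35 against a background of 23.6% of all genes. Another 3, RFC5, RPA2 and FEN1, were higher in every 16 mM library, against a background of 24.5%. When the libraries of each close set were summed to 1 sample and 10 mM library 1 was left out, 13 of the 35 were called (37.1%), 2 higher and 11 lower. That fit called 25.8% of all genes, 11.8% higher and 14% lower. With that library included, summing left no gene called at 16 mM.

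At 10 mM against control, POLA1 fell and FEN1 rose. They were the only 2 of the 35 called (5.71%), beside 18.7% of all genes, 9.41% higher and 9.3% lower. Without library 1, 19 of the 35 were called (54.3%), 1 higher and 18 lower, beside 45.2% of all genes, 22.4% higher and 22.8% lower. The median log2 change of the 35 genes was then -0.18, and that of all genes 0.00. Without library 1, 14 genes (40%) lay below every control library and FEN1 lay above, where all genes did so in 16.2% and 14.5%. With it, POLA1, RFC1 and LIG1 lay below and FEN1 above, against backgrounds of 9.46% and 6.84%. With close sets summed and without library 1, none of the 35 was called and 1.83% of all genes were. An unadjusted edgeR p under 0.05 was held by 10 of the 35 and by 19.7% of all genes in that fit.

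At 16 mM against 10 mM, RNASEH1 rose and LIG1, MCM7, POLD1 and POLA1 fell, which is 5 of the 35 (14.3%) beside 14.1% of all genes, 6.69% higher and 7.46% lower. Without library 1 of the 10 mM group, 9 of the 35 were called (25.7%) beside 44.1% of all genes, 23.2% higher and 20.9% lower. FEN1, RNASEH1, RPA2, RFC5 and POLE3 were then higher and the same 4 genes lower. The levels of POLE3, RFC5, RPA2, FEN1 and RNASEH1 were higher in every 16 mM library than in 10 mM libraries 2 to 6, against a background of 16.8% of all genes. MCM7, POLD1 and LIG1 were lower in every one, against a background of 14.8%.

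**Figure D2:**
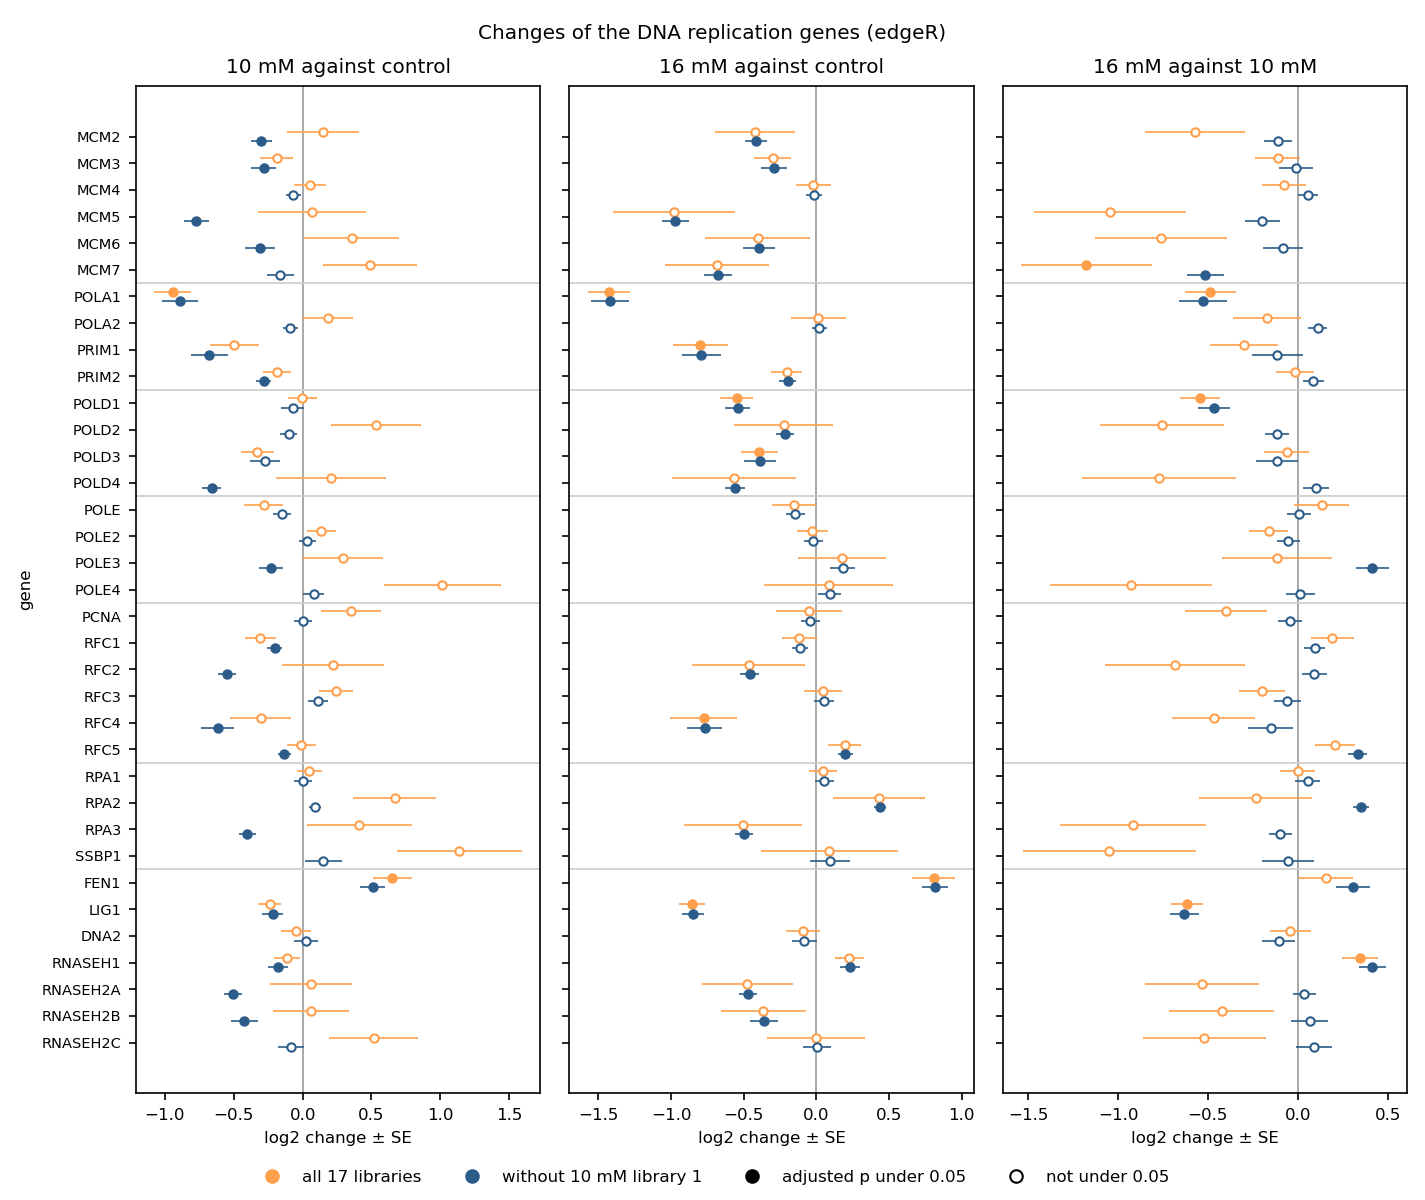
The log2 change ± SE of each of the 35 genes in the 3 comparisons, from edgeR. Orange is the fit on all 17 libraries and blue the fit without 10 mM library 1. Filled points are called. POLA1 lies furthest below 0 at 16 mM against control in both fits, at -1.43 and -1.42.

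Promoter sequences are shown for POLA1 and LIG1, which fell at 16 mM, FEN1, which rose, and PCNA, which was not called. Each is a window of 300 bases around the annotated start, mostly upstream of it, in RefSeq (GRCh38.p14). Capitals mark a match to an E2F-type motif, searched on both strands as TTT, then a pair of bases that are each C or G, then CGC. Matches may overlap. The POLA1 window is chrX:24693668-24693967, plus strand. The LIG1 window is chr19:48170295-48170594, minus strand. It lies inside the gene span given below, which comes from the deposited annotation and so places the start elsewhere. The PCNA window is chr20:5126573-5126872, minus strand. The FEN1 window is chr11:61792661-61792960, plus strand.
POLA1: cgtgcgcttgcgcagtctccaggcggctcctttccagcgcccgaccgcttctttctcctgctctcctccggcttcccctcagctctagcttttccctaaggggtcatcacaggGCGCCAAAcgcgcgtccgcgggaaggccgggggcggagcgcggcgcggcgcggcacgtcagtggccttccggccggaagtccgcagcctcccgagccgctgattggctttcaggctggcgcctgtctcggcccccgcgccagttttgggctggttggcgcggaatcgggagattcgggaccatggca
LIG1: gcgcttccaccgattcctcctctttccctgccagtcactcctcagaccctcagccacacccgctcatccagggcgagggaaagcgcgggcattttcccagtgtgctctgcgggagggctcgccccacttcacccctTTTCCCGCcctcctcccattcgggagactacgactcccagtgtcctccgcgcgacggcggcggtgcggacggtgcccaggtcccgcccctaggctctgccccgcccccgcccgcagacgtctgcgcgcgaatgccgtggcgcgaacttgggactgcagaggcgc
PCNA: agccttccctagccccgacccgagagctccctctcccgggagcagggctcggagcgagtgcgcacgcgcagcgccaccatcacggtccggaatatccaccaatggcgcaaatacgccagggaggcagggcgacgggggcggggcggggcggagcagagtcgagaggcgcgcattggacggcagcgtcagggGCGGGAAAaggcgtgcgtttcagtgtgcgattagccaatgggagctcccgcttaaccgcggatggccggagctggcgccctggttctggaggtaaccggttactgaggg
FEN1: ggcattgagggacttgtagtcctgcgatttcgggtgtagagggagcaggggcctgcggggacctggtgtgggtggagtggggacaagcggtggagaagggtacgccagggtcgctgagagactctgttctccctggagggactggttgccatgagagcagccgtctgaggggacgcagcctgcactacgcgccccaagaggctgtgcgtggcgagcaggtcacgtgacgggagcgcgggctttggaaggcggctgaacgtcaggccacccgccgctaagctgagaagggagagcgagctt
The first 3 windows hold 1 match each and that of FEN1 holds none. The windows of PRIM1, POLD1 and RFC4, which also fell at 16 mM with all libraries, hold none. RefSeq promoters were at hand for 29 of the 35 genes, and 13 of these (44.8%) held a match, where 1164 of all 35116 promoters (3.3%) did. Among the genes with a promoter, a match stood in 6 of 15 that were lower at 16 mM without 10 mM library 1, in 0 of 3 that were higher and in 7 of 11 that were not called. The CCAAT motif, also searched on both strands, was in 15 of 29 (51.7%) against 34.6% of all promoters. A match is a stretch of letters and not a measured binding site.

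Primer synthesis held the gene with the largest fall. POLA1 encodes the catalytic subunit of polymerase alpha, and its gene lies at chrX:24693877-24996986 (GRCh38.p13). Its level in controls was 47.1 at the lowest, 47.7 at the median and 54.5 at the highest. It was 27.8, 28.7, 28.4, 23.6 and 22.4 in 10 mM libraries 2 to 6, and 21.2 in library 1. At 16 mM the libraries stood at 22.4, 21.0, 22.2, 13.8 and 13.4. No treated library reached the lowest control, and 16 mM libraries 4 and 5 were the lowest of all. The log2 change was -1.43 ± 0.14 at 16 mM against control (edgeR adjusted p = 1.41e-06), or 0.371 times the control level. At 10 mM against control it was -0.94 ± 0.13 (edgeR adjusted p = 0.000155), and at 16 mM against 10 mM it was -0.49 ± 0.14 (edgeR adjusted p = 0.0307). This last call was kept under 18 of 27 alternatives, and was lost without any 1 of 10 mM libraries 2, 3 and 4 or 16 mM libraries 4 and 5.

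The calls for POLA1 at 10 mM were lost when close sets were summed, with and without library 1, and at 16 mM when they were summed with it. The summed fit without library 1 gave an edgeR adjusted p of 0.00386 at 16 mM against control. Its partner POLA2, the regulatory B subunit, averaged 36.8 ± 2.17 in controls (SD, n = 6), 34.8 ± 1.38 in 10 mM libraries 2 to 6 (SD, n = 5) and 38.0 ± 2.34 at 16 mM (SD, n = 5). It was not called in any of the 3 comparisons, with a log2 change of 0.01 ± 0.19 at 16 mM against control. Some 35.1% of the exon bases of POLA2 are shared with another annotated gene on the same strand, so its reads could be split.

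PRIM1 encodes the primase subunit that makes the RNA primer. Its level was 103, 103 and 104 in control libraries 1 to 3 and 70.6, 75.5 and 84.9 in control libraries 4 to 6. It was 59.9, 55.0, 58.3, 53.8 and 53.7 in 10 mM libraries 2 to 6, and 99.96 in library 1. It was 59.6, 59.1, 61.9, 40.0 and 39.8 at 16 mM, so every 16 mM library lay below every control, although the controls themselves fell into 2 levels. The fall at 16 mM was -0.80 ± 0.19 (edgeR adjusted p = 0.0034). For PRIM2, the large primase subunit, the change at 16 mM against control was -0.20 ± 0.11 with all libraries, which was not called, and -0.20 ± 0.06 without 10 mM library 1 (edgeR adjusted p = 0.00527).

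**Figure D3:**
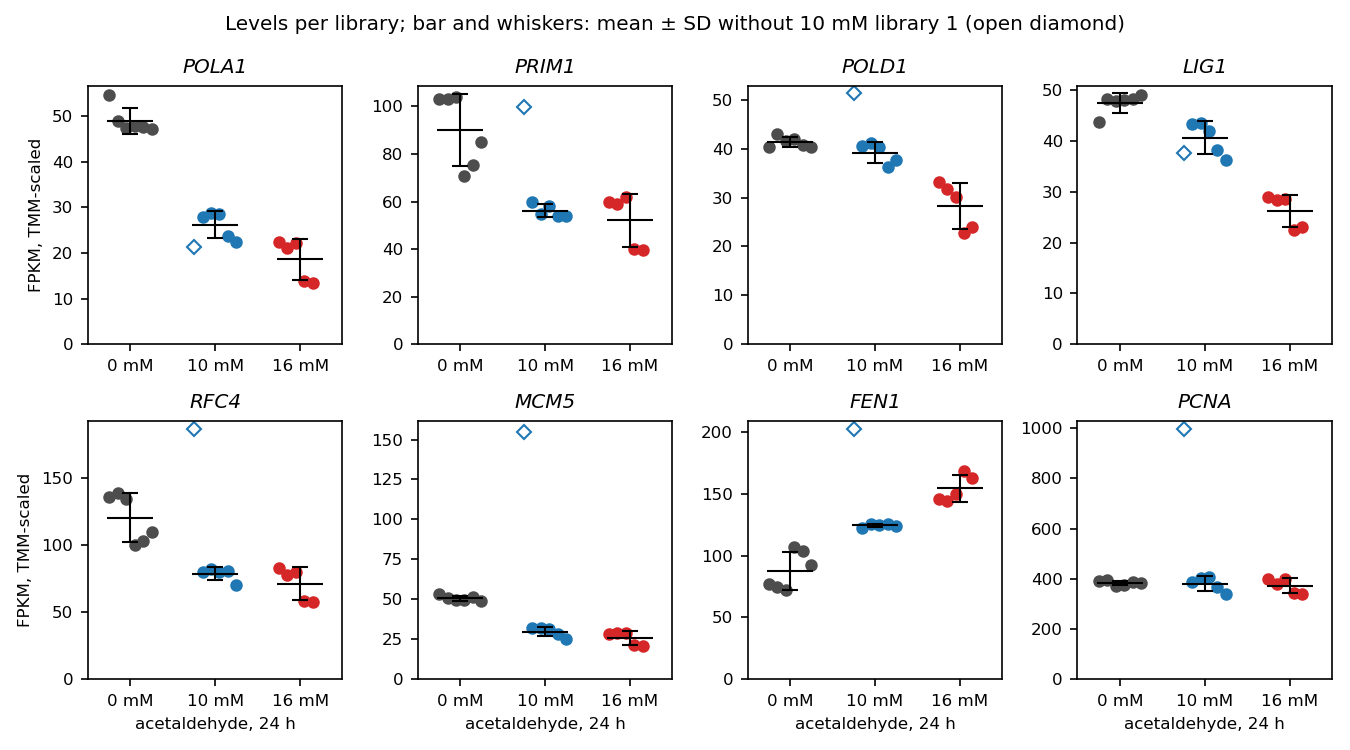
Level (TMM-scaled FPKM, axes from 0) of 8 of the genes in each library at 0, 10 and 16 mM acetaldehyde. Lines are the mean ± SD without 10 mM library 1, which is the open diamond. POLA1 and LIG1 levels step down and FEN1 levels step up with concentration, while PCNA means lie between 372 and 383.

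With all libraries none of the 6 genes of the MCM2-7 helicase was called at 10 mM or 16 mM against control, and without 10 mM library 1, 4 of 6 fell at 10 mM and 5 of 6 fell at 16 mM, where 22.8% and 32.2% of all genes were called lower in that fit. MCM5 lies at chr22:35400133-35455356. Its level in controls was 49.1 at the lowest, 50.1 at the median and 53.4 at the highest. It was 31.9, 31.7, 31.3, 28.1 and 25.2 in 10 mM libraries 2 to 6, but 155 in library 1, and 28.2, 29.1, 28.8, 21.1 and 21.0 at 16 mM. All treated libraries other than that one were thus below all controls. The change at 16 mM against control was -0.98 ± 0.42 with all libraries (edgeR adjusted p = 0.0822) and -0.97 ± 0.09 without 10 mM library 1 (edgeR adjusted p = 1.17e-07).

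MCM7 was lower at 16 mM than at both other concentrations. Its level averaged 166 ± 16.0 in controls (SD, n = 6), 147 ± 12.8 in 10 mM libraries 2 to 6 (SD, n = 5) and 103 ± 15.6 at 16 mM (SD, n = 5), and 10 mM library 1 stood at 654. The change at 16 mM against 10 mM was -1.18 ± 0.36 with library 1 (edgeR adjusted p = 0.0401) and -0.51 ± 0.10 without it (edgeR adjusted p = 0.000821). That call was kept under 11 of 26 alternative settings. MCM4, another subunit of the ring, averaged 90.04 ± 5.97 in controls (SD, n = 6), 85.5 ± 2.503 in 10 mM libraries 2 to 6 (SD, n = 5) and 88.9 ± 4.94 at 16 mM (SD, n = 5). It was called in no comparison. MCM2, MCM3 and MCM6 changed by -0.41, -0.29 and -0.40 at 16 mM against control without 10 mM library 1. In these 3 genes 16 mM libraries 4 and 5 were lower than libraries 1 to 3, for example 63.7 and 65.1 against 83.0, 81.4 and 79.2 for MCM2.

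The 2 leading subunits by change were also set against a partner within each library, as ratios chosen after their values were seen and not tested. POLA1 to POLA2 averaged 1.33 ± 0.0533 in controls (SD, n = 6), 0.753 ± 0.0968 in 10 mM libraries 2 to 6 (SD, n = 5) and 0.485 ± 0.0953 at 16 mM (SD, n = 5). The ratio was above 1 in every control and below 1 in every treated library, although its side of 1 rests on the POLA2 level, whose reads could be split. MCM5 to MCM4 averaged 0.564 ± 0.0403 in controls (SD, n = 6), 0.347 ± 0.0399 in 10 mM libraries 2 to 6 (SD, n = 5) and 0.287 ± 0.0357 at 16 mM (SD, n = 5). In 10 mM library 1 these ratios were 0.332 and 1.17. Both lay outside the range of all other libraries, the first below it and the second above it. Ratios of other pairs were also formed. At 16 mM, POLD1 to POLD2 (0.114 to 0.208), PRIM1 to PRIM2 (1.56 to 2.74) and POLE to POLE2 (1.36 to 1.47) overlapped the controls. Their control ranges were 0.189 to 0.217, 2.70 to 3.96 and 1.39 to 1.66. MCM7 to MCM4 did not overlap, with 0.987 to 1.32 against 1.73 to 1.91 in controls.

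**Figure D4:**
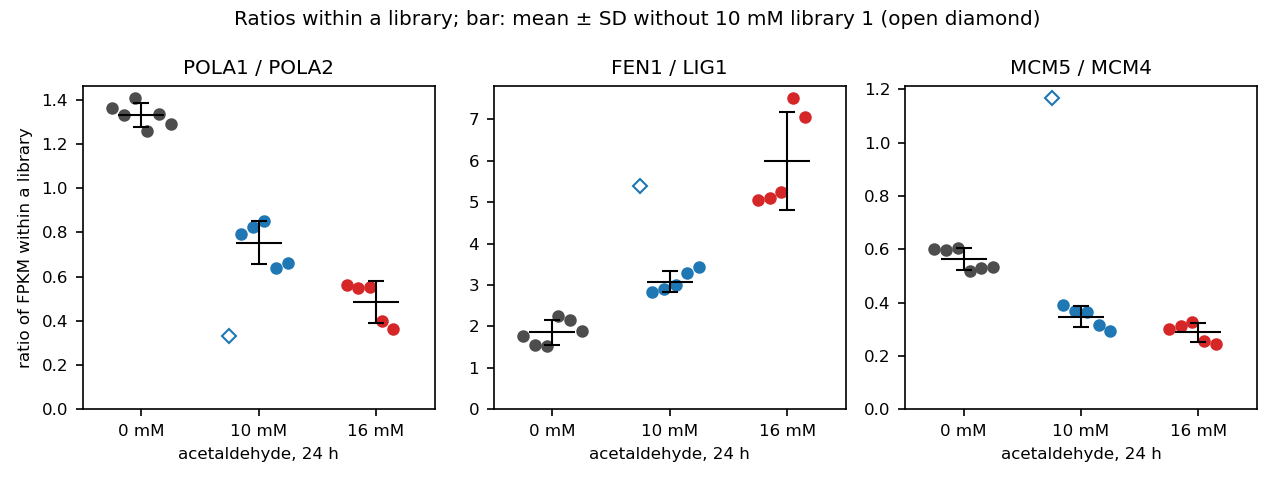
Ratios of levels between pairs of genes within a library, at 0, 10 and 16 mM. Lines are the mean ± SD without 10 mM library 1 (open diamond). POLA1 to POLA2 falls to a mean of 0.485 and FEN1 to LIG1 rises to a mean of 6.00 at 16 mM, against 1.33 and 1.85 in controls.

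Of the 4 genes of the lagging-strand polymerase delta, 2 fell at 16 mM against control, and all 4 fell when 10 mM library 1 was left out, beside 18.1% and 32.2% of all genes called lower in these fits. POLD1, the catalytic subunit, lies at chr19:50384291-50418018. Its level in controls was 40.4 at the lowest, 41.2 at the median and 42.9 at the highest. It was 40.5, 41.1, 40.3, 36.2 and 37.7 in 10 mM libraries 2 to 6 and 51.4 in library 1, and 33.2, 31.6, 30.1, 22.7 and 24.0 at 16 mM. The 16 mM libraries lay below all others, while those at 10 mM overlapped the controls. The change was -0.55 ± 0.11 at 16 mM against control (edgeR adjusted p = 0.00109) and -0.55 ± 0.11 at 16 mM against 10 mM (edgeR adjusted p = 0.00531).

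POLD3, an accessory subunit, fell by 0.39 ± 0.13 on the log2 scale at 16 mM against control (edgeR adjusted p = 0.0228), a call kept under 21 of 27 alternatives. Its levels at 16 mM of 31.3, 30.9, 31.9, 23.5 and 22.8 overlapped the control range of 31.3 to 42.4. POLD4, the smallest subunit, stood at 7.10, 7.91, 7.78, 7.55 and 7.84 at 16 mM and at 7.61, 7.14, 6.29, 7.04 and 7.35 in 10 mM libraries 2 to 6, below the control range of 10.9 to 11.7. With 10 mM library 1, where it was 42.5, it was called in no comparison. Without that library the change was -0.56 ± 0.07 at 16 mM (edgeR adjusted p = 1.5e-06) and -0.66 ± 0.07 at 10 mM (edgeR adjusted p = 1.08e-06) against control. POLD2, the scaffold subunit, changed by -0.22 ± 0.06 at 16 mM without that library (edgeR adjusted p = 0.00522).

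No gene of the 4 for polymerase epsilon was called at 16 mM against control in either fit, beside 35.3% and 65.9% of all genes. POLE, the catalytic subunit of the leading-strand enzyme, averaged 32.3 ± 1.25 in controls (SD, n = 6), 29.04 ± 2.64 in 10 mM libraries 2 to 6 (SD, n = 5) and 29.1 ± 2.02 at 16 mM (SD, n = 5). Its change at 16 mM against control without 10 mM library 1 was -0.14 ± 0.07 (edgeR adjusted p = 0.0632). POLE3, a histone-fold subunit, was the one member of the complex with a call between doses. Its level at 16 mM was 60.7, 60.5, 61.0, 81.7 and 76.6, against 45.0, 46.9, 47.0, 57.5 and 58.6 in 10 mM libraries 2 to 6. Controls ran from 57.7 to 64.0, a range that holds 16 mM libraries 1 to 3. Libraries 4 and 5 of the 16 mM group set the upper end. Without library 1, the change at 16 mM against 10 mM was 0.41 ± 0.09 (edgeR adjusted p = 0.00172), and with it -0.12 ± 0.31, of the opposite sign and not called. Part of that difference was a lower level at 10 mM than in controls, by -0.23 ± 0.09 without library 1 (edgeR adjusted p = 0.0385).

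Of the 6 clamp and loader genes, only RFC4 fell at 16 mM against control with all libraries, where 18.1% of all genes were called lower. PCNA, the sliding clamp, stood at a level of 383 ± 9.47 in controls (SD, n = 6), 381 ± 28.5 in 10 mM libraries 2 to 6 (SD, n = 5) and 372 ± 29.8 at 16 mM (SD, n = 5). Its change at 16 mM against control was -0.05 ± 0.23 with all libraries and -0.04 ± 0.06 without 10 mM library 1, called in neither fit. RFC4, a loader subunit, lies at chr3:186789900-186806482. Its level was 136, 139 and 135 in control libraries 1 to 3 and 99.9, 103 and 110.0 in control libraries 4 to 6. It was 80.2, 82.3, 80.0, 80.4 and 70.5 in 10 mM libraries 2 to 6, 186 in library 1, and 82.7, 77.9, 80.3, 58.1 and 57.3 at 16 mM. All 16 mM libraries lay below all controls. The change at 16 mM against control was -0.77 ± 0.23 (edgeR adjusted p = 0.0153).

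RFC2 and RFC5, further loader subunits, changed in opposite directions at 16 mM. Without 10 mM library 1, RFC2 changed by -0.46 ± 0.07 (edgeR adjusted p = 1.22e-05) and RFC5 by 0.20 ± 0.05 (edgeR adjusted p = 0.00174) against control, and neither was called with it. RFC5 levels were 62.6, 64.8, 61.8, 67.0 and 65.8 at 16 mM, all above the control range of 51.9 to 59.1. The same levels in 10 mM libraries 2 to 6 were 48.1, 50.1, 51.4, 51.5 and 54.1, so 16 mM exceeded 10 mM by 0.33 ± 0.05 on the log2 scale without library 1 (edgeR adjusted p = 0.000138). RFC5 shares 186 exon bases with WSB2 on the opposite strand, and WSB2 rose by 0.38 on the log2 scale at 16 mM against control (edgeR adjusted p = 0.0284). RFC1, the large subunit, and RFC3 were not called at 16 mM against control in either fit.

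RPA, the main single-strand binding protein, has 3 subunits in this list. RPA2 levels were 89.98, 87.0, 89.1, 92.8 and 91.6 at 16 mM, above the control range of 61.2 to 70.0 and above the 66.9 to 76.9 of 10 mM libraries 2 to 6. RPA3 levels at 16 mM were 25.2, 25.5, 28.0, 26.0 and 25.0, all below the control range of 33.3 to 40.3. RPA1, the large subunit that carries most of the DNA contacts, averaged 62.4 ± 2.15 at 16 mM (SD, n = 5) and 60.2 ± 6.55 in controls (SD, n = 6). Without 10 mM library 1 the changes at 16 mM against control were 0.44 ± 0.04 for RPA2 (edgeR adjusted p = 1.38e-07), -0.50 ± 0.06 for RPA3 (edgeR adjusted p = 2.48e-06) and 0.05 ± 0.07 for RPA1 (edgeR adjusted p = 0.479). With that library, in which RPA2 reached 277 and RPA3 153, none of the 3 was called. RPA3 shares exon bases with UMAD1 on the opposite strand, and UMAD1 fell by 0.91 on the log2 scale at 16 mM against control (edgeR adjusted p = 6.68e-05). No label used here states if the library kit kept strand. SSBP1, which the pathway lists for mitochondrial DNA, was called in no comparison, and its level ran from 229 to 341 at 16 mM and from 218 to 295 in controls.

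Of the genes that finish Okazaki fragments, the nuclease and the ligase went opposite ways. FEN1, the flap endonuclease, lies at chr11:61792911-61799270. Its level was 76.95, 74.6 and 72.6 in control libraries 1 to 3 and 107, 104 and 92.5 in control libraries 4 to 6. It was 122, 126, 125, 126 and 124 in 10 mM libraries 2 to 6, 203 in library 1, and 146, 144, 149.8, 169 and 163 at 16 mM. The 3 concentrations did not overlap once library 1 was left out, and with it both treated groups still lay above all controls. The rise was 0.81 ± 0.15 at 16 mM (edgeR adjusted p = 0.000461), or 1.75 times the control level, and 0.65 ± 0.14 at 10 mM (edgeR adjusted p = 0.00465), both against control.

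The call for FEN1 at 10 mM was lost when close sets were summed, with and without library 1. The summed fit without that library gave an edgeR adjusted p of 0.0146 at 16 mM against control. The exons of FEN1 share 49 bases with FADS2 and 166 with TMEM258 in GENCODE 29. FADS2 fell by 0.59 on the log2 scale at 16 mM against control (edgeR adjusted p = 0.0389), and the estimate for TMEM258 was -0.49 (edgeR adjusted p = 0.263).

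LIG1, the ligase of replication, lies at chr19:48115445-48170595. Its level in controls was 43.6 at the lowest, 48.0 at the median and 49.1 at the highest. It was 43.4, 43.4, 41.8, 38.3 and 36.2 in 10 mM libraries 2 to 6, 37.6 in library 1, and 28.9, 28.3, 28.5, 22.5 and 23.1 at 16 mM. The 3 groups did not overlap, and library 1 was within the range of its group. The change was -0.86 ± 0.09 at 16 mM against control (edgeR adjusted p = 1.98e-06), -0.62 ± 0.09 at 16 mM against 10 mM (edgeR adjusted p = 0.000657) and -0.24 ± 0.08 at 10 mM against control (edgeR adjusted p = 0.0552). Without library 1 the change at 10 mM against control was -0.22 ± 0.08 and called (edgeR adjusted p = 0.0262). FEN1 to LIG1, a ratio also chosen after its values were seen, averaged 1.85 ± 0.301 in controls (SD, n = 6), 3.08 ± 0.262 in 10 mM libraries 2 to 6 (SD, n = 5) and 6.00 ± 1.19 at 16 mM (SD, n = 5), and was 5.40 in 10 mM library 1.

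RNASEH1 cuts RNA in RNA-DNA hybrids. Its levels were 18.7, 19.6, 20.04, 23.5 and 22.4 at 16 mM, against 14.5, 15.1, 15.8, 16.8 and 16.2 in 10 mM libraries 2 to 6 and 20.2 in library 1, which lay within the 16 mM range. The rise at 16 mM against 10 mM was 0.34 ± 0.10 (edgeR adjusted p = 0.0312), kept under 16 of 27 alternatives. Controls ran from 16.0 to 19.7 and overlapped the 16 mM levels. Against control, the change at 16 mM was 0.23 ± 0.10 and not called (edgeR adjusted p = 0.0866). Without 10 mM library 1 it was 0.23 ± 0.07 at 16 mM (edgeR adjusted p = 0.00802) and -0.18 ± 0.07 at 10 mM (edgeR adjusted p = 0.0482). RNASEH2A, the catalytic subunit of RNase H2, stood at 116, 115, 109.7, 114 and 116 at 16 mM, below the control range of 143 to 184, and at 109 to 112 in 10 mM libraries 2 to 6. Without 10 mM library 1, where it was 419.8, its change was -0.47 ± 0.06 at 16 mM against control (edgeR adjusted p = 5.41e-06), and with it the gene was not called. RNASEH2B changed by -0.36 ± 0.10 without that library (edgeR adjusted p = 0.00419), while the estimate for RNASEH2C was 0.00 ± 0.09. Reads of RNASEH2A and RNASEH2C could be split or shared, since 30.8% and 28.2% of their exon bases lie in other annotated genes. The same holds for POLD4 and PRIM1, which share 21.3% and 14.9% with a gene on the same strand. MCM2 shares 22.7% with a gene on the opposite strand. DNA2, a nuclease and helicase that trims long flaps, was called in no comparison.

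Set against the mean of the other 10 mM libraries, POLE4 was 6.36 times and SSBP1 6.20 times as high there, with effective transcript lengths of 769 and 308 bases, while POLE, with the longest transcript of 7346 bases, was 0.483 times as high. Across the 35 genes the Spearman correlation of this ratio with effective transcript length was -0.636 and the Pearson correlation on logs -0.659, and across all 12564 tested genes they were -0.613 and -0.569. These are descriptions across genes, which are not independent and share the same libraries. No such relation was seen for the 16 mM change without that library, where the Spearman correlation with transcript length was -0.079 over the 35 genes and 0.03 over all genes. The span of the gene on the chromosome gave -0.176 over the 34 genes with a span and -0.168 over all genes. POLA1 spans 303 kb, and among all 702 tested genes that span 200 to 400 kb the median log2 change at 16 mM was -0.48. PRIM2, the other of the 35 in that range, changed by -0.20. The part of gene span in the change of POLA1 was not tested.

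**Figure D5:**
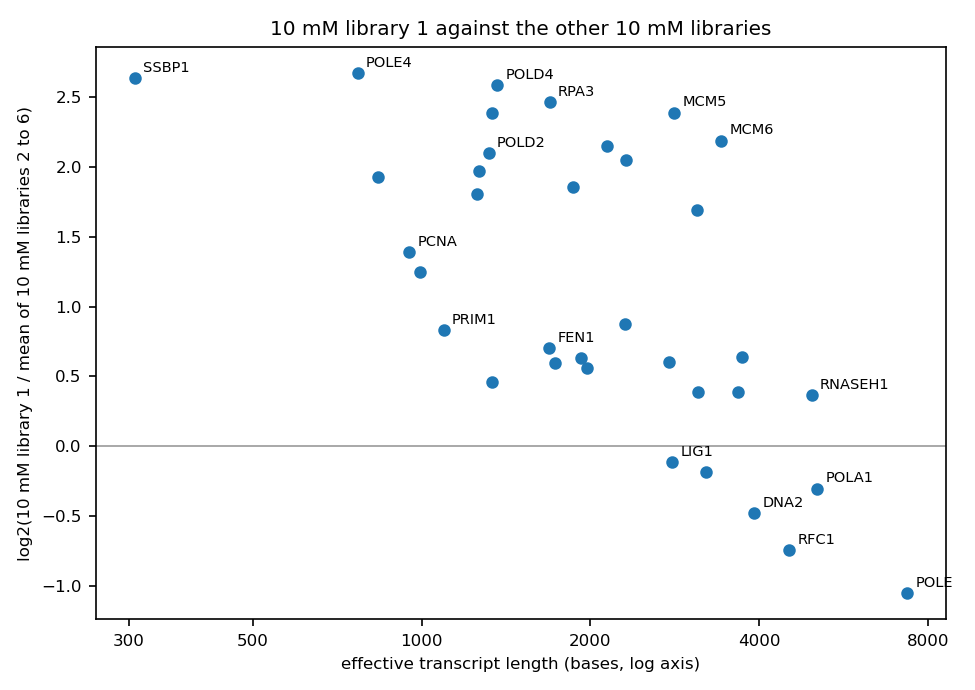
Log2 ratio of the level in 10 mM library 1 to the mean of 10 mM libraries 2 to 6, against effective transcript length (log axis), for the 35 genes. POLE4, a short transcript, lies highest at 2.67, and POLE, the longest, lies lowest.

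Other genes that act with the replication machinery were taken as 8 lists chosen with earlier results of these data known. Among 24 genes of origin licensing and firing, 0 rose and 1 fell at 16 mM against control, and without 10 mM library 1, 5 rose and 12 fell, beside 65.9% of all genes called in that fit. CDC7, the kinase that fires origins, fell by 0.53 ± 0.10 on the log2 scale (edgeR adjusted p = 0.000762). CDC45, which activates the helicase, averaged 74.8 ± 12.3 in controls (SD, n = 6), 39.2 ± 2.88 in 10 mM libraries 2 to 6 (SD, n = 5) and 39.0 ± 2.15 at 16 mM (SD, n = 5). Its change at 16 mM was -0.95 ± 0.38 with all libraries (edgeR adjusted p = 0.0588) and was called without 10 mM library 1 (edgeR adjusted p = 3.35e-07). The licensing factors CDC6 and CDT1 changed by 0.40 and -0.44 at 16 mM against control and were called without 10 mM library 1 (edgeR adjusted p = 0.00041 and 0.00109) but not with it.

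At the fork, 2 of 10 protection and clamp genes rose and 3 fell at 16 mM against control. TOP1, the topoisomerase that relieves twist ahead of the fork, averaged 43.9 ± 6.58 in controls (SD, n = 6), 83.9 ± 10.9 in 10 mM libraries 2 to 6 (SD, n = 5) and 106 ± 13.5 at 16 mM (SD, n = 5), a rise of 1.27 ± 0.13 at 16 mM (edgeR adjusted p = 1.24e-06). CLSPN, a checkpoint mediator at the fork, rose by 0.71 ± 0.10 (edgeR adjusted p = 3.8e-05). PCLAF, a PCNA-binding protein, fell by 0.81 ± 0.27 (edgeR adjusted p = 0.0279) and TIMELESS by 0.44 ± 0.13 (edgeR adjusted p = 0.0153). Of 10 chromatin assembly genes 0 rose and 2 fell, namely HELLS and NASP.

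Regulators of S phase went both ways, with 4 of 24 higher and 8 lower at 16 mM against control. CDKN1A, the p21 inhibitor that also binds PCNA, rose by 1.75 ± 0.30 at 10 mM (edgeR adjusted p = 0.000838) and by 0.90 ± 0.31 at 16 mM (edgeR adjusted p = 0.0308). Its level ran from 88.0 to 326 at 10 mM and from 56.9 to 80.6 in controls. It was 273, 296 and 285 in 10 mM libraries 2 to 4, but 94.7 and 88.0 in libraries 5 and 6. At 16 mM it was 154, 147 and 149 in libraries 1 to 3, and 89.7 and 95.98 in libraries 4 and 5. The change in CDKN1A at 16 mM against 10 mM was -0.85 ± 0.31 and not called (edgeR adjusted p = 0.0782). Without 10 mM library 1 it was not called either (edgeR adjusted p = 0.067). CCNE1 and CDC25A, which drive entry into S phase, rose by 0.52 and 0.72 at 16 mM, and E2F5 fell by 1.20. E2F1, MKI67 and RRM2, markers of cycling cells, had estimates of -0.22, -0.19 and 0.11 at 16 mM against control and were not called in that comparison, with or without 10 mM library 1. CCNE2 was not called there either. It was lower at 10 mM than in controls, by -0.44 ± 0.10 (edgeR adjusted p = 0.00745), and higher at 16 mM than at 10 mM by 0.64 ± 0.11 (edgeR adjusted p = 0.00179). Its mean level was 34.1 in controls, 24.2 in 10 mM libraries 2 to 6 and 39.1 at 16 mM.

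With all libraries, counts in the remaining lists were small at 16 mM against control. Of 12 genes of nucleotide supply 1 rose and 0 fell, of 10 checkpoint genes 2 rose and 1 fell, and of 12 translesion genes 1 rose and 1 fell. PRIMPOL, a primase that restarts stalled forks, fell by 0.83 ± 0.17 (edgeR adjusted p = 0.00103). Of 8 genes for mitochondrial DNA replication, 3 rose and 0 fell, namely POLG, the mitochondrial polymerase, by 0.78 ± 0.17 (edgeR adjusted p = 0.00196), TWNK, its helicase, by 1.09 ± 0.31 (edgeR adjusted p = 0.0107) and POLRMT by 0.38 ± 0.11 (edgeR adjusted p = 0.0165). The median log2 change of this list was 0.20, and that of the 35 genes -0.20. The counts from the fit on all libraries stand beside the 35.3% of genes called in that comparison. At 10 mM against control without library 1, 50% of the nucleotide supply, 50% of the checkpoint and 41.7% of the translesion genes were called. The mitochondrial list then had 62.5% called, beside 45.2% of all genes.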

How the data were processed

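Per the labels, RNA of BEAS-2B cells was sequenced in 17 libraries. The authors deposited estimated counts per gene and FPKM (scaled for gene length and library size), and the submitters' processing notes name HISAT, Bowtie2 2.3.4.3, RSEM 1.3.1, DESeq2 1.4.5 and GRCh38.p13, with no roles. The deposited estimated counts were rounded to whole numbers (13.1% were not whole), filtered with filterByExpr (12564 genes kept), scaled by TMM and fitted in 1 model over 3 groups with edgeR 4.0.16 (R 4.3.3) quasi-likelihood, with 14 residual degrees of freedom. Each SE was taken as |log2 change|/sqrt(F). The procedure was tested on simulated data. The main fit did not pair libraries by replicate number. The pathway, and so its members, and the lists were chosen with earlier results of these data known; within the pathway, membership followed the annotation. All 35 members could be named; from each other list, the called genes with the smallest p and a mean of at least 1 FPKM were, plus CDKN1A, E2F1, CCNE2, MKI67, RRM2, CDC6, CDT1 and CDC45; genes whose exons overlap a member's were named after their values were seen. Libraries of a close set differed beyond counting noise, so none was taken as deposited in duplicate and each counted as a sample; repeat preparations of 1 culture could differ as much. Alternatives used limma 3.58.1 (pseudocount 1) and DESeq2 1.42.0. Promoters came from RefSeq and exon overlaps from GENCODE 29.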

Additional observations from a re-analysis of the deposited data

Results flagged for a closer look

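In 33 of 105 groups of libraries tested (35 genes in 3 groups), 1 library lay far from the others by Dixon's criterion. Chance meets it in about 5% of independent groups, but the 35 genes share the same libraries, so these groups are not independent. In 30 of them it was 10 mM library 1. It was highest for the helicase genes MCM2 (259), MCM3 (157), MCM4 (133), MCM5 (155), MCM6 (211) and MCM7 (654), as levels in TMM-scaled FPKM. Among the polymerase genes it was highest for POLA2 (63.9), PRIM1 (99.96), PRIM2 (32.3), POLD1 (51.4), POLD2 (824), POLD4 (42.5), POLE2 (29.4), POLE3 (185) and POLE4 (205). The clamp and loader genes PCNA (997), RFC2 (349), RFC3 (96.4), RFC4 (186) and RFC5 (79.0) were highest there too. So were RPA2 (277), RPA3 (153), SSBP1 (1777), FEN1 (203), RNASEH2A (419.8), RNASEH2B (106) and RNASEH2C (80.7). It was lowest for POLE (14.0), RFC1 (31.1) and DNA2 (11.5). Control library 1 was highest of the controls for POLA1 (54.5) and PRIM2 (29.01) and lowest for LIG1 (43.6).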

How the results depend on the processing

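Counts are of the 35 genes, then of all genes. Leaving out 1 library at a time gave 2 to 19 and 1633 to 5670 at 10 mM against control, 6 to 22 and 3559 to 8271 at 16 mM against control, and 2 to 9 and 808 to 5537 at 16 mM against 10 mM. The highest of each came without 10 mM library 1; the other 16 libraries gave at most 4, 7 and 5 of the 35. With a replicate block and without that library the counts were 17 and 5653, 23 and 8506, and 11 and 5881, in the same order, and the block with all libraries gave 3 of the 35 at 16 mM against 10 mM. Replicate numbers matched the libraries across groups only in part. Of 16 same-numbered pairs 12 correlated over 0.1 (-0.39 to 0.414). In the 3 pairings of groups, 2 of 6, 3 of 5 and 1 of 5 libraries correlated best with their own number. voom with library weights gave 25 and 7517, 25 and 9201, and 17 and 7530. Fitting only the groups compared gave 1530 genes at 10 mM, 23 and 7979 at 16 mM, and 2 and 569 between doses. At 10 mM DESeq2 gave 5 of the 23 members for which it gave an adjusted p, and limma on FPKM 5 of the 35, with 11 at 16 mM; limma shifted the median of all genes to -0.11 at 10 mM. Close sets summed, chosen without library 1 after seeing the data, gave 0 and 0 in all 3 comparisons with it (unadjusted p under 0.05 for 1 and 738, 2 and 1288, and 1 and 457), and without it 0 and 246, 13 of the 35, and 0 and 0 (8 and 2606 unadjusted).

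At 16 mM against control no gene called in either of the fits compared changed sign; estimates near 0 of genes called in neither did, such as RNASEH2C and POLA2. At 10 mM, without library 1 and with the block, the log2 changes of MCM2 (-0.28), MCM5 (-0.75), POLD4 (-0.67), POLE3 (-0.25), RFC2 (-0.53), RPA3 (-0.39), RNASEH2A (-0.50) and RNASEH2B (-0.38) turned negative. With voom weights so did MCM2 (-0.29), MCM4 (-0.13), MCM5 (-0.69), MCM6 (-0.29), MCM7 (-0.15), POLA2 (-0.11), POLD2 (-0.18), POLD4 (-0.67), POLE3 (-0.32), RFC2 (-0.50), RPA1 (-0.14), RPA3 (-0.41), RNASEH2A (-0.43), RNASEH2B (-0.34) and RNASEH2C (-0.18). Leaving out 1 library gave ranges of -0.30 to 0.26 for MCM2, -0.77 to 0.23 for MCM5, -0.31 to 0.50 for MCM6, -0.66 to 0.35 for POLD4, -0.23 to 0.40 for POLE3, -0.55 to 0.35 for RFC2, -0.40 to 0.54 for RPA3, -0.51 to 0.16 for RNASEH2A and -0.42 to 0.15 for RNASEH2B. At 16 mM against 10 mM the block without library 1 turned POLE3 (0.43) and RPA2 (0.35) positive, and voom weights MCM4 (0.11), POLA2 (0.17), PRIM2 (0.11), POLE3 (0.38), RFC2 (0.14), RPA2 (0.36) and RNASEH2B (0.18); leaving out 1 library gave -0.23 to 0.41 for POLE3 and -0.34 to 0.35 for RPA2. The cause was not tested.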
